A study of Apis mellifera with 79 samples.

Results

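Vitellogenin (Vg), listed in the deposited tables under the gene identifier GB49544, was followed in the brains of worker honey bees (Apis mellifera) from colonies with and without neonicotinoid insecticides. It is 1 of 11525 genes in the 4 tables, and all 79 libraries held a value for it. The identifier comes from the Official Gene Set v3.2 on the Amel 4.5 assembly, and its pairing with vitellogenin was taken as given, since the tables carry no gene names. In the field study, a library pooled the brains of 5 foragers or 5 nurses of the same colony, taken on the same date just after corn planting. The exposed field colonies (2J1 to 2J5) stood beside corn grown from neonicotinoid-treated seed and the unexposed ones (1J7, 1J9, 2J6, 2J7 and 2J10) stood at a distant site, and the effects of exposure and of site cannot be told apart. In the apiary study, the exposed colonies (C21, C23 and C28) were fed pollen with clothianidin, at 4.9 ppb in the first week falling to 2.0 ppb, and the unexposed colonies (C25, C26 and C27) were fed pollen without it. Both shared a single apiary and queen-right status, bees were taken on day 30, and each library held the brain of a single bee. Foragers were bees that returned with pollen and nurses were bees with their heads in cells that held larvae, and the hypopharyngeal glands and ocelli had been removed from every brain.

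Vitellogenin is the yolk precursor protein of insects, a large lipoprotein made chiefly in the fat body and released into the haemolymph. In worker honey bees, which seldom lay eggs, nurses use it to make food for larvae, and its level in the blood is known to fall when a nurse becomes a forager. Juvenile hormone and vitellogenin are known to repress each other in workers, and Kr-h1, a zinc finger gene induced by juvenile hormone, is a usual readout of that hormone.

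The values were log2 CPM, reads of a gene scaled to the total of the library. The reads behind them, worked back from the steps between values, came to 10.5 to 45.1 M in genes per library, with a median of 26.4 M. Vg took 8 to 1554 of these reads, with a median of 48. Each table (foragers or nurses of the field or the apiary) was scaled separately. The main caste differences were therefore taken after subtraction of each library's median over the genes in both tables of a study. Plain log2 CPM and CPM were not centred in this way, and such values of both castes come from separately scaled tables. Among the apiary nurses, C21-N3 had the lowest rank correlation with the others (median rho 0.961), and among the field nurses the pool 2J6 did (0.960). No Vg value was lost to the authors' filter.

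Vg lay low in most brains and high in a few, and the high ones were nurses. In the tables of foragers, no library of 40 exceeded 3 log2 CPM, which is 8 CPM. Among nurses, 4 of 30 apiary bees and 1 of 9 field pools did. The highest library of all was a single exposed nurse of colony C23 (C23-N3) with 6.11 log2 CPM, and the lowest was an unexposed nurse of colony C27 (C27-N10) with -0.79. In reads, C23-N3 had 1554, or 67.4 per M (64.1 to 70.8, exact 95% binomial interval), and C27-N10 had 14, or 0.50 per M (0.27 to 0.83). These intervals cover counting error only, and they leave the 2 bees far apart.

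**Figure D1:**
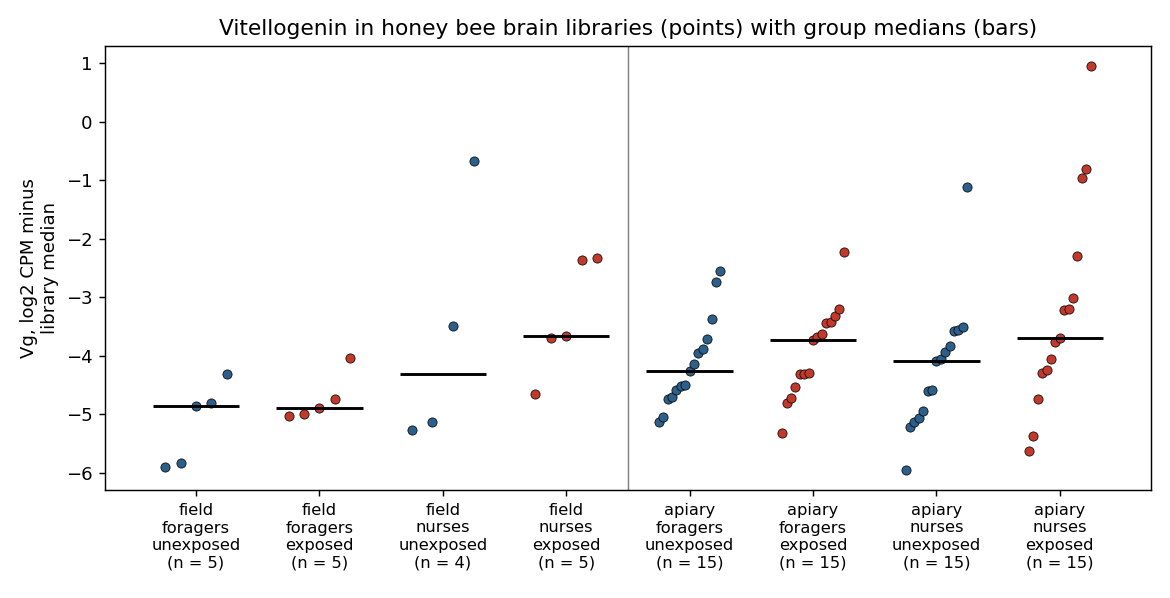
Vg in each of the 79 libraries, as log2 CPM minus the median of the library, for the 8 groups (blue unexposed, red exposed; a point is a pool of 5 brains in the field study and 1 brain in the apiary study, and a bar is the group median). Group medians lie between -4.89 and -3.67, and the libraries far above them are nurses, up to 0.95 in C23-N3.

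In field foragers, Vg was low in every pool. The exposed pools stood at 0.29 (2J1), 1.30 (2J2), 0.40 (2J3), 0.30 (2J4) and 0.56 (2J5) log2 CPM. The unexposed pools stood at 0.99 (1J7), 0.44 (1J9), 0.48 (2J6), -0.63 (2J7) and -0.54 (2J10). The groups overlapped, with 1 exposed pool above and 2 unexposed pools below the whole range of the other group. Exposed foragers had a mean of 0.57 ± 0.42 (SD, n = 5) and unexposed ones 0.15 ± 0.70 (SD, n = 5). The difference of 0.42 (standard error 0.35, 95% interval -0.34 to 1.18) did not pass limma's test across all genes (adjusted p = 0.473). That test called 0 of 10976 genes (0%) at an adjusted p below 0.05, and 2657 genes had an unadjusted p below 0.05. The count rests on a single pool, since 2921 genes passed once 2J1 was left out, and the Vg difference was then 0.49 (adjusted p = 0.365 by limma). The size of that difference also moved with single pools, to 0.23 without 2J7, 0.24 without 2J2 and 0.25 without 2J10.

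In field nurses, Vg ranged more widely. The exposed pools stood at 2.92 (2J1), 1.59 (2J2), 1.55 (2J3), 2.89 (2J4) and 0.57 (2J5) log2 CPM. The unexposed pools stood at 1.81 (1J7), -0.03 (2J6), 0.09 (2J7) and 4.56 (2J10). The pool 2J10 thus lay above every exposed pool while 2J6 and 2J7 lay below every one. Means were 1.90 ± 1.00 (SD, n = 5) and 1.61 ± 2.14 (SD, n = 4), a difference of 0.30 (standard error 0.90, 95% interval -1.70 to 2.30, limma adjusted p = 0.885). It was 1.28 without 2J10, -0.25 without 2J6 and -0.21 without 2J7, so its direction rests on single pools. Limma called 0 of 10852 genes (0%), and 454 had an unadjusted p below 0.05.

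Transcripts of 3 genes of secreted proteins, called digestive here for short though an inhibitor is among them, differed between the unexposed nurse pools. They were chosen as possible signs of gland, gut or other tissue left on a brain, which was not tested. The study names the same 3 genes as its largest changes in these field nurses, all lower near corn. Their lower sum in the exposed pools is thus no separate result. The summed level of alpha-amylase (LOC406114), which splits starch, a chymotrypsin inhibitor (LOC725114) and a lipase (LOC551268) was 569 CPM in 1J7, 461 in 2J7, 25.5 in 2J10 and 21.1 in 2J6, and 4.15 to 13.2 in the 5 exposed pools. All 3 genes were in the table. The pool richest in Vg was therefore not the richest in these transcripts. Without 1J7 and 2J7 the exposed minus unexposed difference of Vg was -0.36 (adjusted p = 0.846). Markers of the fat body were not analysed here, because their identifiers were not paired with names.

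In apiary foragers, Vg spanned a similar range in both groups. The 15 exposed bees lay between -0.24 and 2.85 log2 CPM with a median of 1.36, and the 15 unexposed bees between -0.05 and 2.53 with a median of 0.84. Only 1 exposed bee lay above and 1 below all unexposed bees. Means were 1.15 ± 0.79 (SD, n = 15) and 0.97 ± 0.76 (SD, n = 15), and the difference of 0.19 (standard error 0.27, 95% interval -0.37 to 0.74) did not pass limma's test (adjusted p = 0.831). Limma called 1 of 11381 genes (0.00879%). Sequencing run moves with exposure here, since 7 of the 15 exposed foragers were sequenced in the first of the 2 runs and no unexposed one was. Within the second run alone the difference was -0.10, and without colony C26 it was -0.066.

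By colony, exposed foragers averaged 1.16 ± 0.63 in C21, 0.85 ± 0.86 in C23 and 1.44 ± 0.91 in C28 (SD, n = 5 bees each). Unexposed foragers averaged 1.07 ± 0.48 in C25, 0.47 ± 0.34 in C26 and 1.37 ± 1.08 in C27. Colony means of the 2 groups interleaved, and they differed by 0.19 (p = 0.600, exact two-sided permutation test of 3 colonies against 3, which cannot go below 0.10). Among the 3 colonies of a group, Vg did not pass limma's F test, either in exposed foragers (F = 0.77, adjusted p = 0.860, 11 of 11381 genes or 0.0967% called) or in unexposed foragers (F = 2.48, adjusted p = 0.507, 65 genes or 0.571% called).

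Among single brains, the highest values were those of nurses. In exposed colonies, the bees of C28 stood at 1.95, 1.95, 2.15, 2.89 and 4.22 log2 CPM. Those of C21 stood at 0.38, 0.90, 1.08, 1.43 and 4.38, and those of C23 at -0.49, -0.21, 0.84, 1.45 and 6.11. Each exposed colony therefore had 1 bee above 4 log2 CPM, and in C28 the other bees were high as well.

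In unexposed colonies, the bees of C25 stood at 0.01, 0.55, 0.56, 1.21 and 1.58 log2 CPM. Those of C26 stood at -0.06, 0.23, 1.05, 1.09 and 4.05, and those of C27 at -0.79, 0.07, 1.28, 1.58 and 1.59. A single unexposed nurse, C26-N4, thus reached the level of the high exposed nurses.

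**Figure D2:**
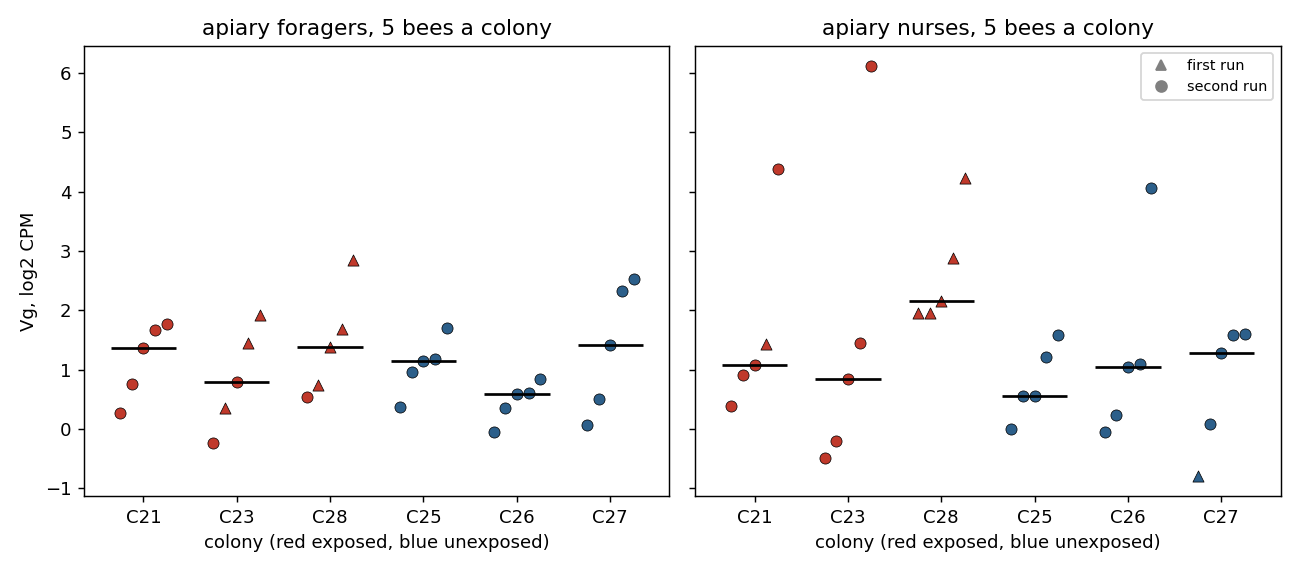
Vg in log2 CPM in each apiary bee by colony, with foragers at left and nurses at right (red exposed, blue unexposed; triangles first sequencing run, circles second run; bars are colony medians). Most bees of both castes lie between -1 and 3, and 4 nurses, C28-N7, C21-N3, C23-N3 and C26-N4, lie above 4.

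The 15 exposed nurses had a median of 1.45 and the 15 unexposed nurses a median of 1.05 log2 CPM. Means were 1.94 ± 1.81 (SD, n = 15) and 0.93 ± 1.12 (SD, n = 15). The difference of 1.00 (standard error 0.53, 95% interval -0.07 to 2.08) did not pass limma's test (p = 0.0670, adjusted p = 0.358 by limma). In this comparison, 6 of 11271 genes (0.0532%) were called. Only 3 exposed nurses lay above all unexposed ones, and 1 unexposed nurse lay below all exposed ones.

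The colony means of nurses did not overlap between the groups. They were 1.63 ± 1.58 (C21), 1.54 ± 2.67 (C23) and 2.63 ± 0.97 (C28) in exposed colonies and 0.78 ± 0.62 (C25), 1.27 ± 1.63 (C26) and 0.75 ± 1.06 (C27) in unexposed ones (SD, n = 5 bees each). Their difference of 1.00 had the smallest p that 3 colonies against 3 allow, 0.10 (exact two-sided permutation test). The share of all genes whose colony means separate in this way was not counted. The median bees did overlap, at 1.08, 0.84 and 2.15 against 0.56, 1.05 and 1.28, a difference of 0.39 (p = 0.50, exact permutation test). All 5 nurses of C28 were sequenced in the first run, with 1 nurse each of C21 and C27, and the difference between groups within the second run was 0.55 (adjusted p = 0.781 by limma). With the run as a term in the fit it was 0.91 (adjusted p = 0.641), and with the lane as a term 1.53 (adjusted p = 0.999). Without colony C28 it was 0.65 (adjusted p = 0.736 by limma).

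Within the nurse groups, the 3 colonies could not be told apart by Vg. Limma's F was 0.62 in exposed nurses (adjusted p = 0.712, 121 of 11271 genes or 1.07% called) and 0.38 in unexposed nurses (adjusted p = 0.756). In unexposed nurses, 3135 genes (27.8%) were called, so colonies differed widely in other genes. Without the single bee C23-N3, F among the exposed colonies was 4.53 (adjusted p = 0.191).

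Counted as CPM in place of log2, single bees held most of the Vg of some nurse colonies. C23-N3 carried 91.9% of the summed CPM of the 5 nurses of C23 and stood 38.6-fold above the median bee of its colony. C21-N3 carried 72.3% of its colony's sum, C26-N4 72.4% and C28-N7 48.8%. In C25 and C27, the highest nurse carried 32.4% and 29.9%. Among forager colonies, the highest bee carried between 25.4% and 44.6%, where equal bees would each carry 20%.

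**Figure D3:**
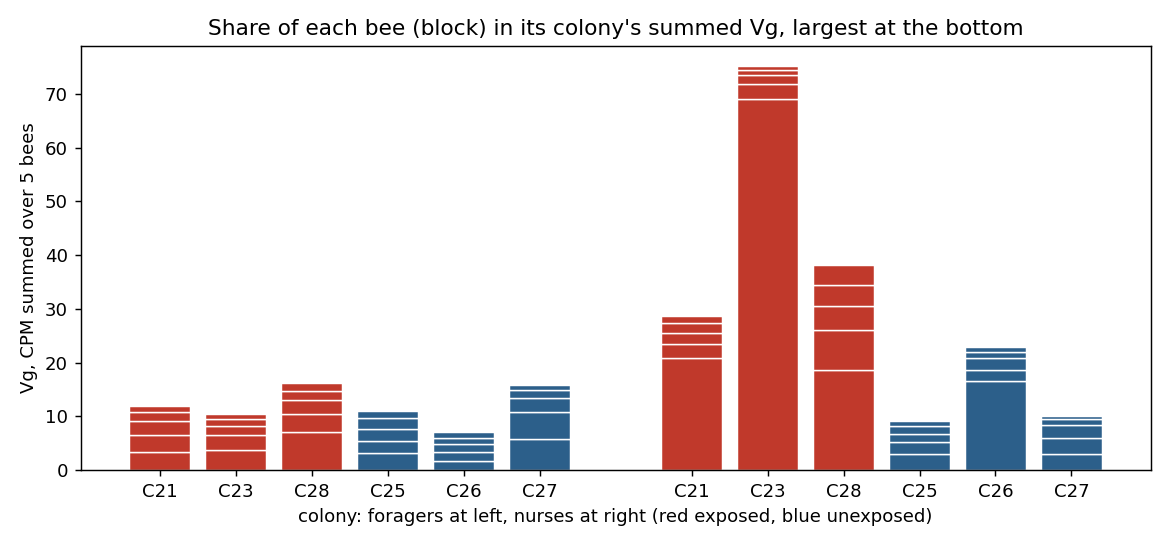
Vg in CPM summed over the 5 bees of each apiary colony, foragers at left and nurses at right, with each bee as 1 block and the largest at the bottom (red exposed, blue unexposed). One block fills most of the bar in the nurses of C23, C21 and C26, whereas blocks are more even among foragers.

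The spread of Vg was large for its level in nurses. Within colonies, the SD between apiary nurses was 1.57, larger than that of 98.2% of the 734 other genes whose mean lay within 0.5 log2 units of Vg, whose median SD was 0.40. In apiary foragers it was 0.76, larger than that of 88.3% of 725 such genes (median SD 0.44). In field nurses, the SD between pools within exposure groups was 1.59, larger than that of 99.3% of 766 genes, and in field foragers 0.58, larger than that of 70.9% of 633 genes. Of the 4 genes nearest to Vg in mean level in apiary nurses, 0 had a library over 2 log2 units above their own median, while Vg had 4 of 30.

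Neither depth nor the digestive transcripts moved closely with Vg. Over 30 apiary nurses, after removal of colony means, Vg correlated with the reads in genes at r = 0.14, with the summed digestive transcripts at r = -0.14 and with 4 transcription factors of the brain (Mblk-1, Foxp, LOC724983 and LOC408411, summed) at r = 0.15. Over 30 foragers the values were 0.09, 0.23 and -0.09. Mblk-1 made up most of the sum of transcription factors. It averaged 10.5 log2 CPM in nurses, against 6.80 (Foxp), 3.88 (LOC724983) and 6.16 (LOC408411). Bees of the same colony and run share handling, and these correlations are descriptions. Whether depth or other tissue contributed to Vg was not tested. In both castes, the digestive sum took the 2 of the 3 genes that were in both tables. In the 4 highest nurses, that sum was 3.57 CPM (C23-N3), 22.6 (C21-N3), 3.97 (C28-N7) and 7.01 (C26-N4), with 2 of the 3 genes in that table. Medians were 4.07 in exposed and 4.25 in unexposed nurses, and single nurses reached 272 CPM.

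Field nurses averaged higher than field foragers of the same colony. After subtraction of library medians, nurses exceeded foragers by 2.63 (2J1), 0.38 (2J2), 1.19 (2J3), 2.70 (2J4) and 0.10 (2J5) in exposed colonies. In unexposed colonies, the difference was 0.83 (1J7), 0.77 (2J7), 5.17 (2J10) and -0.46 (2J6). Vg was thus higher in nurses in 8 of 9 colonies, and 2J10 alone passed 3 log2 units. The mean difference was 1.48 ± 1.74 (SD, n = 9 colonies, p = 0.0156, exact two-sided sign-flip permutation test, 0.0312 when adjusted over the field and apiary tests). Without 2J10 it was 1.02 (p = 0.0312, exact, or 0.0625 when adjusted over the same tests). Leaving out each colony in turn kept the unadjusted p at or below 0.0312, but the adjusted permutation p was 0.0625, which did not pass, without 6 of the 9 colonies (1J7, 2J1, 2J3, 2J4, 2J7 or 2J10).

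The fit across all genes did not call Vg. Exposed field nurses exceeded exposed field foragers by 1.40 (standard error 0.67, 95% interval -0.01 to 2.81, limma adjusted p = 0.156), where 1999 of 10734 genes (18.6%) were called. Unexposed nurses exceeded unexposed foragers by 1.51 (standard error 0.71, 95% interval 0.01 to 3.00, limma adjusted p = 0.339), where 296 genes (2.76%) were called. That difference was 0.52 without the nurse pool 2J10 and at most 2.05 without any other pool. Among exposed pools, 4 of 5 nurse pools lay above every forager pool, and among unexposed pools 2 of 4 did.

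In the apiary, no such difference held over the colonies. Nurses exceeded foragers of their colony by 0.40 (C21), 0.63 (C23), 1.1 (C28) and 0.74 (C26), and lay below them by -0.34 (C25) and -0.67 (C27). The mean was 0.31 ± 0.68 (SD, n = 6 colonies, p = 0.281, exact two-sided sign-flip test, for which 0.0312 is the smallest p). With the median bee of each colony in place of the mean it was 0.01. Exposed nurses exceeded exposed foragers by 0.71 (standard error 0.43, 95% interval -0.15 to 1.56, limma adjusted p = 0.161), with 5689 of 11151 genes (51%) called. That difference was 0.41 without the nurse C23-N3 and at most 0.88 without any other bee or colony. Unexposed nurses and foragers differed by -0.09 (standard error 0.43, 95% interval -0.94 to 0.76, limma adjusted p = 0.895), with 3671 genes (32.9%) called, and this difference changed sign when single colonies or bees were left out. Thus Vg was not among the many genes called between the castes in single brains.

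**Figure D4:**
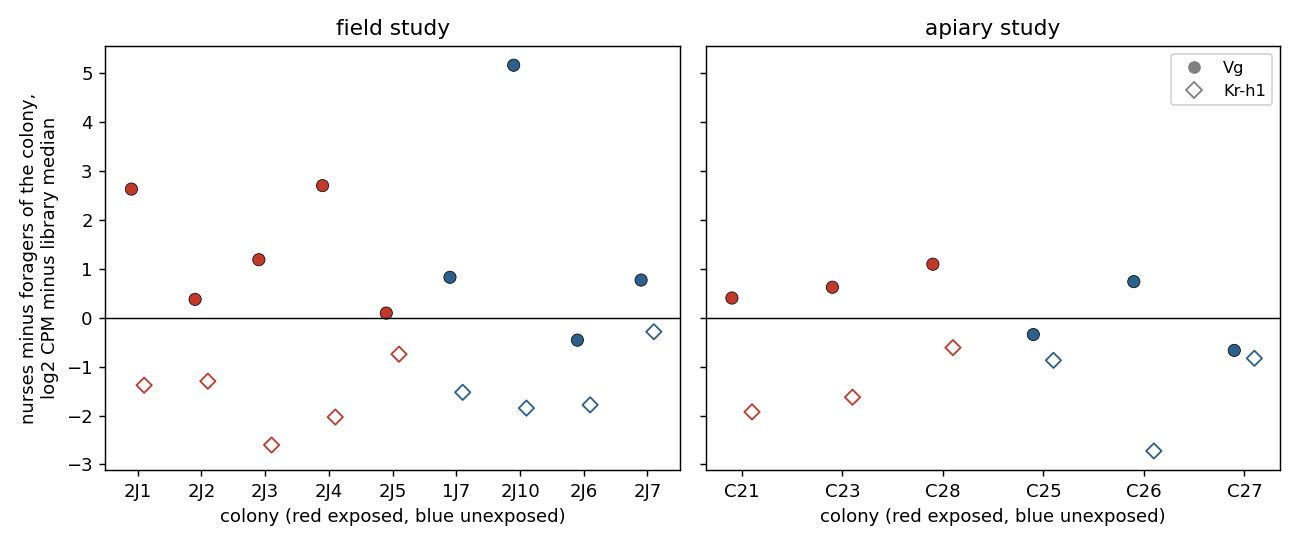
Nurses minus foragers of each colony in log2 CPM minus library median, for Vg (filled circles) and Kr-h1 (open diamonds), in 9 field and 6 apiary colonies (red exposed, blue unexposed). Kr-h1 lies below 0 in every colony, while Vg lies above 0 in 8 of 9 field colonies and 4 of 6 apiary colonies.

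In order of their group means after median subtraction, field groups ran from exposed nurses (-3.34 ± 0.99, SD, n = 5) through unexposed nurses (-3.64 ± 2.14, n = 4) and exposed foragers (-4.74 ± 0.40, n = 5) to unexposed foragers (-5.14 ± 0.70, n = 5). The step between the nurse groups was smaller than either SD, the step between unexposed nurses and exposed foragers was smaller than the SD of those nurses, and the step between the forager groups was smaller than the SD of the unexposed foragers. Apiary groups ran from exposed nurses (-3.22 ± 1.80, SD, n = 15) through exposed foragers (-3.93 ± 0.79) and unexposed foragers (-4.12 ± 0.77) to unexposed nurses (-4.21 ± 1.12). No neighbours in that order differed beyond their spread.

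The effect of exposure on Vg was not shown to differ between castes. The difference of effects, foragers minus nurses, was 0.11 in the field (standard error 0.98, 95% interval -1.95 to 2.16, limma adjusted p = 0.992) and -0.80 in the apiary (standard error 0.60, 95% interval -2.01 to 0.41, limma adjusted p = 0.554). Limma called 0 genes in each of these comparisons (0% of 10734 and 0% of 11151), with 655 and 1530 genes at an unadjusted p below 0.05. The field value ran from -0.88 to 0.65 when single pools were left out. These contrasts use the libraries of the exposure and caste comparisons above and are not independent of them.

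**Figure D5:**
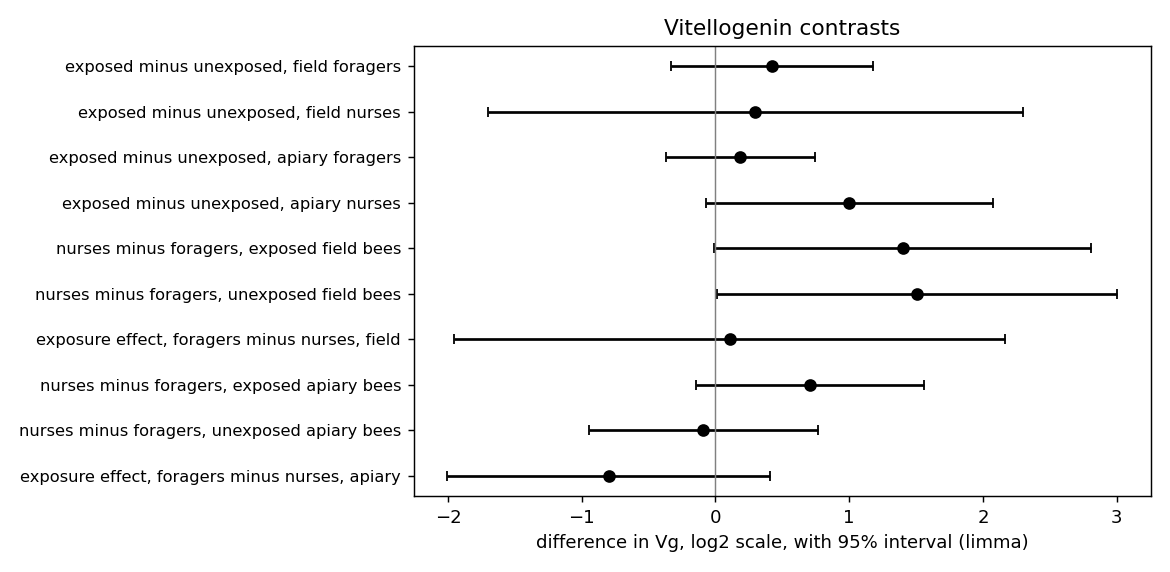
Limma's estimate of each Vg contrast (points) with its 95% interval (bars), on the log2 scale. All intervals include 0 except that of unexposed field bees, which starts at 0.01, and none passed after adjustment over all genes.

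Of the 3 named genes of hormone signalling, Kr-h1 passed the test across all genes between the castes in all 4 comparisons, LOC411780 in 2 and Mblk-1 in 1. Of all genes, limma called 18.6% in exposed and 2.76% in unexposed field bees. In the apiary, where alone LOC411780 and Mblk-1 passed, it called 51% in exposed and 32.9% in unexposed bees, so a call there is common. The apiary fits took single bees as units, so their p-values measure the spread between bees and not between colonies. Kr-h1 (GB43022) was lower in nurses than in foragers in 9 of 9 field colonies (by -0.29 to -2.60) and 6 of 6 apiary colonies (by -0.61 to -2.72). It passed limma's test in exposed field bees (-1.61, adjusted p = 0.000831), unexposed field bees (-1.39, adjusted p = 0.0147), exposed apiary bees (-1.39, adjusted p = 0.000326) and unexposed apiary bees (-1.47, adjusted p = 0.000326). Within each exposure group of the field, every nurse pool lay below every forager pool in Kr-h1, whereas Vg overlapped between the castes. The share of all genes that separate the pools in this way was not counted. LOC411780 (GB49050), the homologue of the fly gene crooked legs, which is induced by the moulting hormone, was lower in nurses of both apiary groups (-0.25, adjusted p = 6.0e-05, and -0.28, adjusted p = 4.0e-05, by limma). Mblk-1 (GB50048), the homologue of an ecdysone-induced fly gene and known from the mushroom bodies of the bee brain, was lower in exposed apiary nurses (-0.68, limma adjusted p = 0.000466), with -0.30 in unexposed ones (adjusted p = 0.154). Its caste difference was not shown to depend on exposure, since the difference of effects was 0.38 (limma adjusted p = 0.454). Under exposure, 0 of these 3 genes passed in any of the 4 comparisons. Few genes could, since limma called 0% of all genes in field foragers and field nurses, 0.00879% in apiary foragers and 0.0532% in apiary nurses. The study lists all 3 as changed in field foragers by its edgeR test. Limma's differences there were -0.61 for Kr-h1, -0.38 for LOC411780 and 0.87 for Mblk-1 (limma adjusted p = 0.0956, 0.0956 and 0.109).

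From bee to bee, Vg and Kr-h1 showed little relation. Over 30 apiary nurses, after removal of colony means, the correlation was r = 0.08, and over 30 foragers it was -0.15. In C23-N3, the nurse with the most Vg, Kr-h1 stood at 2.91 log2 CPM, near the nurse median of 2.74. In C28-N7 it stood at 3.55, in C21-N3 at 3.33 and in C26-N4 at 1.52, so high Vg occurred beside Kr-h1 levels on both sides of that median. For Mblk-1 the correlations were 0.14 and -0.09, and for LOC411780 0.00 and 0.04. Over the 16 transcription factors that the study lists as changed in field foragers, r ran from -0.25 to 0.42 in nurses and from -0.28 to 0.17 in foragers, with the same sign in both castes in 8 of 16.

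Of 10527 genes with a mean of at least 0 log2 CPM in both apiary tables, GB55452 followed Vg most closely by the smaller of its correlations in the 2 castes. Its r was 0.51 over 30 nurses and 0.69 over 30 foragers, and GB45147 came next with 0.45 and 0.46. GB40572 (-0.49 and -0.52) and GB50656 (-0.44 and -0.57) ran most opposite to it. None of the 4 has a name in the sources used here. GB55452 stood above its nurse median of 2.77 log2 CPM in each of the 4 highest nurses, at 4.28 (C23-N3), 3.83 (C21-N3), 4.67 (C28-N7) and 3.77 (C26-N4). It was chosen by its correlation over these same bees, so these levels are no separate support. By rank, its correlation with Vg was 0.40 in nurses and 0.70 in foragers.

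The same pairs were not shown to move together in the field pools, which had no part in choosing them. Over 9 field nurse pools, after removal of exposure means, GB55452 had r = -0.16 with Vg (rho = -0.08, p = 0.800 by exact permutation within exposure groups) and r = 0.41 without the 2 pools farthest from the median of Vg. Over 10 forager pools, GB55452 had r = -0.53 (rho = -0.55, exact permutation p = 0.153), opposite in direction to the single bees. GB50656 had r = -0.71 in nurse pools (rho = -0.63, exact permutation p = 0.125), and -0.30 without the 2 farthest pools. GB40572 had r = -0.57 there (rho = -0.50, exact permutation p = 0.0767) and -0.62 without the 2 farthest pools. In forager pools, r was 0.07 for GB50656 and 0.21 for GB40572, and -0.57 and -0.65 without the 2 farthest pools. GB45147 had r = -0.20 in nurse pools and -0.58 in forager pools, opposite in direction to the single bees. Without the 2 farthest pools these were 0.19 and -0.55. Of the 8 correlations computed, adjusted p ran from 0.349 to 0.847 by these permutation tests.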

How the data were processed

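The authors trimmed reads with Trimmomatic 0.36, aligned and counted them with STAR, dropped genes under their CPM minimum, scaled each table by TMM in edgeR (R 3.6.3) and deposited log2 CPM, which hold a small prior count. Reads were worked back from the steps between values, and 100% of values under 20000 reads lay within 0.1 of a whole number. Libraries were grouped by their labels, except 2 columns of unexposed apiary foragers (C25-F1.1 and C27-F1) that were assigned by colony. With 30, 30, 10 and 9 libraries per table, limma 3.58.1 in R 4.3.3 (lmFit, eBayes with trend, two-sided) was run on the deposited values, with Benjamini-Hochberg adjustment over all genes of a table, or over the 10734 field or 11151 apiary genes in both caste tables after median subtraction. Single values used exact permutation tests, or 100000 draws with 10 or more values per group (scipy 1.17.1, numpy 2.4.6, pandas 2.3.3, matplotlib 3.10.9, Python 3.11.15), and random blocks used statmod 1.5.0. Bees of a colony share their colony, so p-values over bees measure the spread between bees. Castes of a colony were paired by the colony in the label: over genes, their deviations from group means correlated at r = 0.23 to 0.46 in the 6 apiary colonies and -0.20 to 0.49 in the 9 field colonies. The correlation within the colony exceeded that with other colonies in 6 of 6 apiary colonies but in only 5 of 9 field colonies. The pairing in the field thus rests mainly on the labels.

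Named genes were Vg, 3 hormone genes, the 16 listed transcription factors, 3 digestive genes, and the 2 genes running most with and the 2 most against Vg. The gene and these lists were chosen with earlier results of these data known. No sequence or coordinate of Vg is given, as the reference used here is of another assembly and matched 0 of 11525 identifiers. The exposure fit was run on simulated reads with known changes and independent libraries. Colony effects, caste contrasts and F tests were not simulated. Alternatives were a filter at 1 CPM, log2(CPM + 1), no trend, robust variances, equal or no medians, joint TMM, limma-voom on the recovered reads, colony blocks and means, run or lane terms, the second run alone, and leaving out libraries or colonies. Means of CPM, median bees and single apiary bees left out were added after the values were seen.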

Additional observations from a re-analysis of the deposited data

Results flagged for a closer look

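Dixon's test flagged 3 libraries in 16 sets of 4 or 5 libraries, and it flags about 5% of sets by chance. C21-N3, at 4.38 log2 CPM, lay apart from the other exposed nurses of colony C21, with a gap of 0.738 of the whole range. C26-N4, at 4.05 log2 CPM, lay apart from the other unexposed nurses of C26, with a gap of 0.721. The exposed field forager pool 2J2, at 1.30 log2 CPM, lay apart from the other exposed forager pools, with a gap of 0.733. C23-N3, the highest bee of all, had a gap of 0.707 and was not flagged, since the limit for 5 libraries is 0.710.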

How the results depend on the processing

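Vg passed limma's adjusted threshold in 0 of 428 alternative fits over 14 comparisons (lowest adjusted p 0.0753), whereas the field caste difference within colonies (1.02 to 1.72 without single colonies) lost its adjusted call without 6 of 9 colonies. Directions that changed belonged to differences that had not passed. Exposed minus unexposed foragers of the apiary gave -0.49 with the lane as a term and -0.10 with the run as a term or the second run alone, and -0.066 to 0.38 without single bees or colonies. Exposed minus unexposed field nurses gave -0.36 without 1J7 and 2J7, -0.25 to 1.28 without single pools and -2.80 CPM as means of CPM (p = 0.794, exact permutation test). The difference of exposure effects in the field ran from -0.88 to 0.65 without single pools. Nurses minus foragers among unexposed apiary bees gave 0.034 in the second run, 0.56 CPM as means of CPM (permutation p = 0.824) and -0.51 to 0.20 without single bees or colonies.

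With colony as a replicate block, nurses exceeded foragers by 1.58 in unexposed field bees (adjusted p = 0.419 by limma, 189 genes called against 296) and by 1.40 in exposed ones (adjusted p = 0.186), and the block changed no call of Vg. Counts of genes called, used as background, moved by more than 1.5 times in some fits: 0 to 2921 in field foragers without 2J1, 6 to 157 and 117 in apiary nurses without C23 and C21, 1 to 68 in apiary foragers without C23, 296 to 449 in unexposed field bees without median subtraction and to between 72 and 478 without single pools, and 2987 and 958 with colony means in exposed and unexposed apiary bees. Without colony means removed, r of GB40572 was -0.29 in nurses and of GB50656 -0.35 in foragers. Vg rested on a median of 48 reads, and C23-N1 on 8 (0.33 to 1.51 per M), so ratios among low bees are loose.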

Other observations

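The mean of 5 single bees can be set beside a pool of 5 brains, although the studies were scaled separately and differ in year and place. Mean Vg over the 5 apiary nurses of a colony ran from 1.85 to 15.03 CPM, and the field nurse pools ran from 0.98 to 23.6 CPM. Over foragers, colony means ran from 1.41 to 3.23 CPM and field pools from 0.65 to 2.45 CPM. Whether 1 brain set the value of the pool 2J10 was not tested and cannot be read from a pool.

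A test of the spread itself, chosen after the values were seen, compared each bee's absolute distance from the median of its colony and caste. It averaged 0.90 log2 units in 30 nurses and 0.53 in 30 foragers, a difference of 0.37 (p = 0.120, two-sided permutation of bees within colonies, 100000 draws), with nurses wider in 4 of 6 colonies. Without single high nurses the difference was 0.22 to 0.33, and in the second run alone it was 0.48 (p = 0.113, permutation test). The wider spread of nurses was therefore not shown beyond the spread between bees. As means of CPM, exposed field nurses averaged 4.48 and exposed field foragers 1.54 CPM (p = 0.0159, exact permutation test, 0.127 when adjusted over 8 such comparisons).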
